A study of Mus musculus with 19 samples.

Results

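The cyclin-dependent kinase (CDK) inhibitor genes described here are Cdkn2a, Cdkn2b, Cdkn2c and Cdkn2d of the INK4/ARF class, Cdkn1b and Cdkn1c of the CIP/KIP class, and Cdkn3. They were chosen by symbol, as the rows of the deposited expression table whose gene name matched, and all 7 of 7 were found among the 29861 rows. Cdkn3 is grouped with them by name, but it encodes a dual-specificity phosphatase that removes the activating phosphate from CDK2 and belongs to neither inhibitor class.

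RNA was sequenced from 19 organoid lines, that is, ductal epithelial cells grown as hollow spheres in Matrigel, all of the C57B6/J background. The 7 normal lines came from pancreatic ducts of wild-type mice, the 6 PanIN lines from ducts of Pdx1-Cre mice whose pancreas held pancreatic intraepithelial neoplasia (a precursor lesion of ductal adenocarcinoma), and the 6 tumor lines from adenocarcinomas of mice with Pdx1-Cre and the Cre-activated Trp53 R172H allele. Pdx1-Cre acts in cells of the pancreatic lineage, and the mutant allele encodes a p53 protein changed in its DNA-binding domain. Every line, normal lines included, grew with A83-01, an inhibitor of the TGF-beta type I receptor, and with gastrin, noggin, R-spondin, FGF-10 and EGF. The normal lines were 5 female and 2 male, and the PanIN and tumor lines were each 3 female and 3 male. Ages of the mice are not given in the labels. Whether any lines came from the same animal is not in the labels, and p-values therefore reflect only how these lines vary.

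INK4 proteins (p16INK4a from Cdkn2a, p15INK4b from Cdkn2b, p18INK4c from Cdkn2c and p19INK4d from Cdkn2d) bind CDK4 and CDK6 and keep them from cyclin D, so that RB stays unphosphorylated and holds back E2F transcription factors. CIP/KIP proteins (p21 from Cdkn1a, p27 from Cdkn1b and p57 from Cdkn1c) bind cyclin-CDK complexes and block mainly those with CDK2. Cdkn2a also encodes p19ARF, made from its own promoter and first exon and read in another frame of the shared exons, which binds MDM2 and thereby stabilises p53. In pancreatic cancer the Cdkn2a locus is a known tumor suppressor, and its loss often takes Cdkn2b and the adjacent Mtap with it.

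The starts of the 2 Cdkn2a products are shown because the table has a single row for the gene. Its value does not separate p16INK4a from p19ARF transcripts, and which of them were counted is not stated. The Cdkn3 promoter is shown because this gene followed the genes of mitosis most closely. All stretches come from the RefSeq promoter table of build GRCm38.p6, which held 6 of the 7 genes, and run 5′ to 3′ on the strand of the gene. Capitals mark letters that matched one of the elements searched on both strands.
Cdkn2a, upstream start (p19ARF), chr4:89294650-89294769, minus strand: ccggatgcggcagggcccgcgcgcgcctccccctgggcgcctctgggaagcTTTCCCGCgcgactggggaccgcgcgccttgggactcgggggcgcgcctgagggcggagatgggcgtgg
Cdkn2a, downstream start (p16INK4a), chr4:89282223-89282342, minus strand: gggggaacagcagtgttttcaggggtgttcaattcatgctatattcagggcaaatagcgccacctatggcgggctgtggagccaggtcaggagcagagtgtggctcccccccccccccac
Cdkn3, chr14:46760381-46760520, plus strand: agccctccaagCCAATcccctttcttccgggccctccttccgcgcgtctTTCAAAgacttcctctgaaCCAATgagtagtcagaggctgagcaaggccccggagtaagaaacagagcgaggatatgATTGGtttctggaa

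The Cdkn2a starts lie 12.4 kb apart, and the upstream one lies 16.4 kb from the Cdkn2b start. Elements known from cell cycle promoters were searched from 250 bases before to 50 after each start. These were E2F-type sites (TTTCGCGC, TTTGGCGC, TTTCCCGC or TTTGCCGC), the cell cycle homology region or CHR (TTTGAA) and the CCAAT box (CCAAT). No 2 matches overlapped. The upstream Cdkn2a promoter held TTTCCCGC at positions -99 to -92 from the start, and E2F-type sites occur in 2.27% of the 32851 mouse promoters in that table. Among the 8 promoters of the 6 genes (2 each for Cdkn2a and Cdkn2c), no other one held an E2F-type site. In Cdkn3, the CHR read as its reverse complement TTCAAA at -111 to -106, with a CCAAT box at -149 to -145, at -92 to -88 and, as ATTGG, at -34 to -30, and another just past the start, outside the stretch shown. The CHR occurs in 17.9% and the CCAAT box in 37.4% of all promoters. Cdkn2b also held a CHR, and 1 or more CCAAT boxes were found in 1 of the 2 Cdkn2c promoters and in the Cdkn2d, Cdkn1b and downstream Cdkn2a promoter. These matches describe letters only.

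Values are TPM, a level corrected for transcript length and scaled to the same total in each line. TPM keeps no depth, so read numbers are unknown. Differences are on the log2(TPM + 1) scale, fitted with limma over all 19 lines. A gene was tested when it reached a TPM of 1 in at least 6 lines (12500 genes), and called at an adjusted p below 0.05 (Benjamini-Hochberg over all tested genes). All 7 inhibitor genes were tested.

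As facts of the whole set, all 9 ductal epithelial markers were expressed in every group. Their summed level was 7525 to 12350 TPM in normal, 6589 to 9304 in PanIN and 6022 to 7752 in tumor lines. Summed levels stayed at or below 0.11 TPM for 8 fibroblast, 5 endothelial and 6 endocrine markers. Of 9 acinar markers only Cela1 reached a TPM of 1 (summed level 0.83 to 2.55). Of 7 leukocyte markers, Cd68 and Csf1r reached it, and the list summed to 4.15 to 8.23 TPM in normal, 2.72 to 3.61 in PanIN and 1.46 to 3.85 in tumor lines. Emr1, Cd3e and Lyz2 were listed at 0 in every line. The part of these markers in the group differences was not tested. On the first principal component PanIN 6 was the highest PanIN line, at 30.4, with PanIN 5 next at 12.1. Tumor 4 was the lowest tumor line, at 0.0913, with tumor 3 next at 11.8, and no normal line lay above -9.88. Normal 11 had the lowest proliferation score. A fit without those 3 lines together was added. They were chosen from these same values after the data were seen, so its p-values are description and lend no support. Fewer expressing cells and less RNA per cell cannot be told apart in these bulk cultures.

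Tumor lines had more RNA of 4 of the 7 inhibitor genes than normal lines: Cdkn2a, Cdkn2c, Cdkn2d and Cdkn1c were called higher and 0 were called lower. Over all tested genes, 17.8% were called higher and 14.4% lower in this comparison. The median log2 difference of the 7 genes was 0.55, against 0.04 over all tested genes. In the authors' deposited table the same 4 of 7 genes had an adjusted p below 0.05, where 32.5% of all genes with an adjusted p did. Between PanIN and normal lines limma called 0 of 7 (3.10% of all genes higher and 3.68% lower), with 1 unadjusted p below 0.05, that of Cdkn2a. The authors' deposited table called that same gene, 1 of 7, against 10.5% of genes. Between tumor and PanIN lines limma called 0 of 7 (0.392% of all genes higher and 1.21% lower), although all 7 had an unadjusted p below 0.05, and the authors' deposited table called 2, Cdkn2b and Cdkn2d, against 11.7% of genes. Each pair of comparisons shares the lines of 1 group, so the values set side by side below are not independent.

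**Figure D1:**
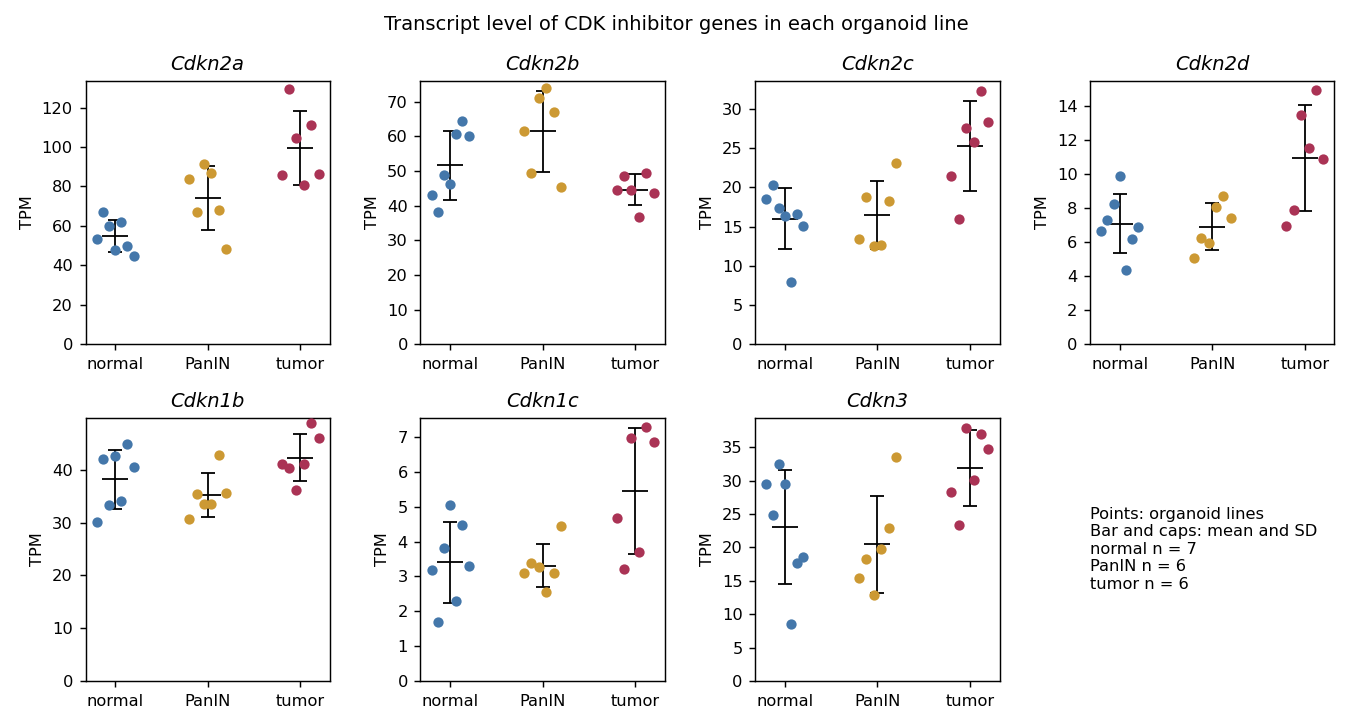
TPM (vertical axis, from 0) of each of the 7 inhibitor genes in normal (n = 7), PanIN (n = 6) and tumor (n = 6) lines. Each point is a line, and bars give the mean and SD. Cdkn2a is the gene whose tumor lines, from 80.8 TPM upward, all lie above all normal lines, which reach 67.1 TPM.

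Cdkn2a was the most abundant INK4 transcript in tumor lines. Its level was 44.6 TPM in the lowest normal line, 53.3 at the median and 67.1 in the highest. In PanIN lines it ran from 48.2 through a median of 75.9 to 91.3 TPM, and in tumor lines from 80.8 through 95.4 to 129 TPM. Every tumor line lay above every normal line, while PanIN lines overlapped both groups. Normal lines averaged 55.0 ± 8.26 TPM (SD, n = 7), PanIN lines 74.2 ± 16.2 (SD, n = 6) and tumor lines 99.7 ± 18.7 (SD, n = 6).

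Tumor lines exceeded normal lines in Cdkn2a by 0.84 on the log2 scale (SE 0.14, 1.79-fold, adjusted p = 0.000617, limma). It was the 1 gene of the 7 whose tumor and normal lines did not overlap, where 7.26% of all tested genes had no overlap. The column names carry library identifiers of 3 series, and the difference was 1.096, 0.83 and 0.86 in series order, with a single tumor line in the first. In the authors' deposited table the log2 fold change was 0.86 with an adjusted p of 4.57e-07.

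PanIN lines exceeded normal lines in Cdkn2a by 0.41 (SE 0.14, adjusted p = 0.0958, limma), which did not pass the threshold, although 5 of 6 PanIN lines lay above the normal median. The authors' deposited table gave 0.49 with an adjusted p of 0.0140, which did. PanIN 6, at 48.2 TPM, was the low line of its group. Without it the limma difference was 0.52 (adjusted p = 0.0205), without it and normal 11 and tumor 4 it was 0.55 (adjusted p = 0.0111), and with the identifier series in the fit it was 0.41 (adjusted p = 0.0281). Of the 33 other settings, 29 left it uncalled, and over the omissions of single lines it ranged from 0.34 to 0.52 with adjusted p between 0.0205 and 0.207. Between tumor and PanIN lines the difference was 0.43 (SE 0.15, adjusted p = 0.0772, limma). No gene of the 7 had PanIN and normal lines or tumor and PanIN lines without overlap, which 3.05% and 1.80% of all tested genes had.

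Cdkn2b, whose product p15INK4b is a known mediator of arrest by TGF-beta, did not rise with its neighbour in tumor lines. It ran from 38.2 through a median of 48.9 to 64.3 TPM in normal lines, from 45.3 through 64.3 to 74.1 in PanIN lines and from 36.7 through 44.5 to 49.5 in tumor lines. Tumor lines lay in a narrow band at the lower end of the normal range, and 4 of 6 PanIN lines lay above all of them. The tumor to normal difference was -0.19 (SE 0.13, adjusted p = 0.268, limma), and the PanIN to normal difference was 0.25 (adjusted p = 0.317, limma). Between tumor and PanIN lines it was -0.44 (SE 0.14, adjusted p = 0.0674, limma), just short of the threshold, and the authors' deposited table gave -0.52 with an adjusted p of 0.0173. Within the identifier series this last difference was -0.31, -0.76 and -0.32, with 1 tumor line in the first and 1 PanIN line in the second. It passed the threshold in limma without PanIN 6 (-0.52, adjusted p = 0.0147) and without tumor 4 (-0.46, adjusted p = 0.0337).

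The ratio of Cdkn2a to Cdkn2b TPM, taken up after the values of both were seen and therefore given with no test, separated the tumor lines from the rest. It was 1.11 ± 0.344 (SD, n = 7) in normal lines, with a range of 0.743 to 1.76, and 1.21 ± 0.149 (SD, n = 6) in PanIN lines, with a range of 1.01 to 1.36. In tumor lines it was 2.23 ± 0.269 (SD, n = 6), with a range of 1.93 to 2.67. No tumor line reached down to normal 6, the highest line outside the tumor group.

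**Figure D2:**
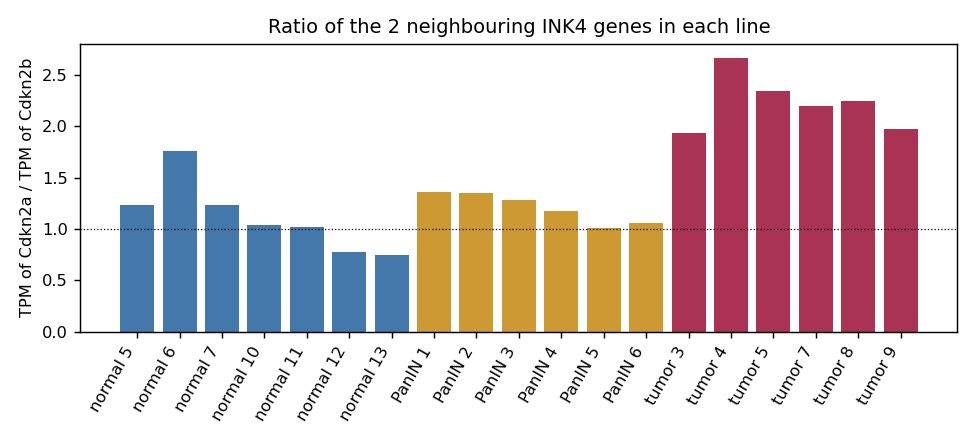
Ratio of Cdkn2a TPM to Cdkn2b TPM (vertical axis, linear, from 0) in each of the 19 lines, coloured by group, with a dotted line at equal levels. The 6 tumor lines lie at 1.93 to 2.67 and all other lines at 1.76 or below.

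The 4 INK4 genes summed to 129.6 ± 6.74 TPM in normal (SD, n = 7), 159.0 ± 22.6 in PanIN (SD, n = 6) and 180.4 ± 22.5 in tumor lines (SD, n = 6). Cdkn2a made up a mean of 42.3% of that sum in normal, 46.3% in PanIN and 55.0% in tumor lines. The share of Cdkn2b was 39.8%, 38.4% and 24.8%. Cdkn2c held between 10.9% and 14.2% of the sum in the 3 groups.

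The genes around this locus were also read. Mtap, the methylthioadenosine phosphorylase gene beside Cdkn2a, had 56.2 ± 7.64 TPM in normal (SD, n = 7) and 75.8 ± 14.6 in tumor lines (SD, n = 6), a 1.33-fold rise (adjusted p = 0.0118, limma). Dmrta1, on the other side of Cdkn2b, did not exceed 0.02 TPM in any line. Cdkn2a, Cdkn2b and Mtap all had RNA in each of the 6 tumor lines.

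Cdkn2c, whose product p18INK4c is known to appear in dividing precursor cells, rose in tumor lines. It ran from 7.9 through a median of 16.6 to 20.2 TPM in normal lines, from 12.5 through 15.8 to 23.1 in PanIN lines and from 16.0 through 26.7 to 32.3 in tumor lines. Tumor 4 lay within the normal range, and the other 5 tumor lines lay above all normal lines. Tumor lines exceeded normal lines by 0.64 (SE 0.19, 1.56-fold, adjusted p = 0.0177, limma), and without tumor 8 by 0.56 (adjusted p = 0.0522). Within the identifier series the difference was -0.21 in the first, whose tumor line is tumor 4, and 1.25 and 0.61 in the others. PanIN and normal lines differed by 0.05 (adjusted p = 0.938, limma), and tumor and PanIN lines by 0.59 (SE 0.20, adjusted p = 0.0756, limma).

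Cdkn2d, which encodes p19INK4d, a protein whose level is known to rise in S phase, was the least abundant INK4 transcript. It ran from 4.33 through 6.90 to 9.88 TPM in normal lines, from 5.03 through 6.83 to 8.70 in PanIN lines and from 6.92 through 11.2 to 14.9 in tumor lines. Tumor 3 and tumor 4 lay among the normal lines, and the other 4 tumor lines lay above all of them. The tumor to normal difference was 0.55 (SE 0.17, 1.46-fold, adjusted p = 0.0211, limma). It missed the threshold without tumor 5 (0.49, adjusted p = 0.0565) and without tumor 8 (0.46, adjusted p = 0.0643). PanIN lines differed from normal lines by -0.02 (adjusted p = 0.972, limma). Tumor lines exceeded PanIN lines by 0.57 (SE 0.18, adjusted p = 0.0688, limma), and the authors' deposited table gave 0.58 with an adjusted p of 0.0378.

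Cdkn1b, the gene of p27, was called in no comparison. It ran from 30.2 through 40.5 to 44.8 TPM in normal lines, from 30.6 through 34.5 to 42.8 in PanIN lines and from 36.3 through 41.1 to 48.9 in tumor lines. The 3 ranges overlapped over most of their length. The tumor to normal difference was 0.15 (SE 0.10, adjusted p = 0.244, limma), the PanIN to normal difference -0.11 (SE 0.10, adjusted p = 0.618) and the tumor to PanIN difference 0.26 (SE 0.10, adjusted p = 0.104).

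p27 is known to be controlled mainly through degradation, and 13 genes of its turnover and transcription were listed. Between tumor and normal lines 4 of the 13 were called higher and 1 lower (17.8% and 14.4% of all tested genes). Their median log2 difference was 0.03, against 0.04 over all tested genes. Skp2, the F-box protein that marks p27 for degradation, had 10.9 ± 1.13 TPM in normal (SD, n = 7) and 19.2 ± 5.11 in tumor lines (SD, n = 6), a 1.66-fold rise (adjusted p = 0.00461, limma). Its cofactor Cks1b rose 1.45-fold (adjusted p = 0.00683, limma), and Cops5, a signalosome subunit known to bind p27, rose 1.14-fold (adjusted p = 0.0168). Rnf123, part of a ligase that acts on p27 in the cytoplasm, fell 1.18-fold (adjusted p = 0.0381). Limma called 0 of the 13 between PanIN and normal lines (1 unadjusted p below 0.05) and 0 between tumor and PanIN lines (5 unadjusted). The authors' deposited table called 0 and 4 of them, against 10.5% and 11.7% of genes.

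Cdkn1c, the imprinted gene of p57, had the lowest level of the 7. It ran from 1.70 through 3.31 to 5.05 TPM in normal lines, from 2.56 through 3.20 to 4.44 in PanIN lines and from 3.20 through 5.76 to 7.28 in tumor lines. Tumor 5, 8 and 9 lay above all other lines, while tumor 3, 4 and 7 lay within the normal range. The tumor to normal difference was 0.55 (SE 0.19, 1.46-fold, adjusted p = 0.0346, limma), and the authors' deposited table gave 0.63 with an adjusted p of 0.0197. This call was lost when any of normal 6, 11 or 13 or tumor 5, 8 or 9 was left out (adjusted p = 0.0524 to 0.0945), and with the identifier series in the fit (0.48, adjusted p = 0.0642). It was also lost with sex in the fit (0.53, adjusted p = 0.0524, limma) and with only the groups compared (adjusted p = 0.0631). The same held with no filter (0.0583) and after rescaling without rows that have no comparison (0.0540). PanIN and normal lines differed by 0.00 (SE 0.19, adjusted p = 0.995, limma) and tumor and PanIN lines by 0.54 (SE 0.20, adjusted p = 0.0890).

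The neighbours of Cdkn1c in its imprinted domain did not move as a block. Of 7 tested genes, 2 were called higher and 2 lower between tumor and normal lines (17.8% and 14.4% of all tested genes). Phlda2, a maternally expressed growth regulator, rose 1.86-fold (6.88 ± 1.05 TPM in normal, SD, n = 7, and 15.5 ± 8.72 in tumor lines, SD, n = 6; adjusted p = 0.0145, limma), and Tssc4 rose 1.16-fold (adjusted p = 0.04996). Slc22a18, directly beside Cdkn1c, fell 1.38-fold (adjusted p = 0.00725) and the tetraspanin gene Cd81 fell 1.28-fold (adjusted p = 0.00812). Kcnq1ot1, the long noncoding RNA known to silence this domain on the paternal chromosome, differed by -0.02 (adjusted p = 0.912).

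Cdkn1a, the third CIP/KIP gene and a p53 target, went another way than Cdkn1b and Cdkn1c: 53.6 ± 15.3 TPM in normal (SD, n = 7), 80.4 ± 11.7 in PanIN (SD, n = 6) and 34.4 ± 9.88 in tumor lines (SD, n = 6). The means of Cdkn2b had the same order (51.6, 61.4 and 44.6 TPM). For Cdkn1a the tumor to normal difference was -0.62 (adjusted p = 0.0173, limma) and the tumor to PanIN difference -1.24 (adjusted p = 0.00289). Between PanIN and normal lines it was 0.61 (adjusted p = 0.0549, limma), and the authors' deposited table gave 0.62 with an adjusted p of 0.0237. This last difference was called in 9 of 33 other settings, among them the fits without normal 5 (adjusted p = 0.0486), 7 (0.0301) or 11 (0.0395), without tumor 3 (0.0488) or 8 (0.0423), and without normal 11, PanIN 6 and tumor 4 together (0.73, adjusted p = 0.0414). Without tumor 8 the tumor to normal difference missed the threshold (-0.51, adjusted p = 0.0543).

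Cdkn3 ran from 8.48 through 24.8 to 32.5 TPM in normal lines, from 12.9 through 18.98 to 33.5 in PanIN lines and from 23.4 through 32.4 to 37.9 in tumor lines. Normal 11 was the low line and PanIN 6 the high line of their groups. None of the 3 differences was called: 0.54 between tumor and normal (SE 0.25, adjusted p = 0.101, limma), -0.12 between PanIN and normal (SE 0.25, adjusted p = 0.857) and 0.66 between tumor and PanIN lines (SE 0.26, adjusted p = 0.104). Within the identifier series the tumor to normal difference was -0.29, 1.07 and 0.76, with 1 tumor line in the first.

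**Figure D3:**
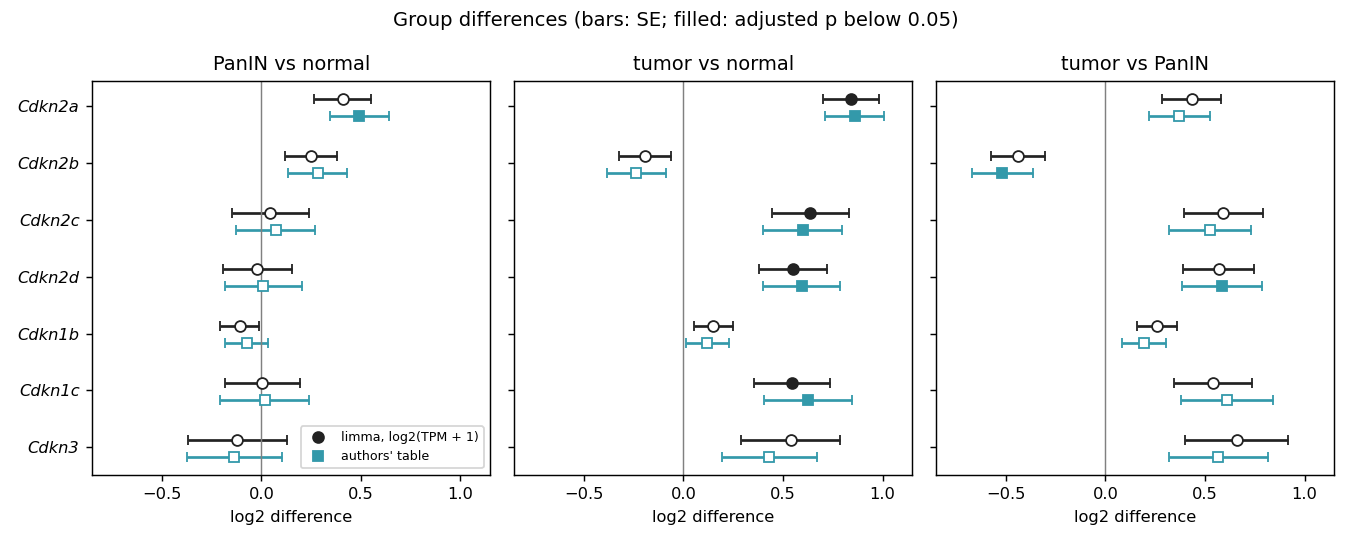
Log2 difference (horizontal axis) of the 7 genes in the 3 comparisons, from limma on log2(TPM + 1) (circles) and from the authors' deposited table (squares). Bars are SE and filled symbols have an adjusted p below 0.05. Both sources fill the same 4 genes between tumor and normal lines, and limma fills none in the other comparisons.

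In the tumor to PanIN comparison the number of calls changed with some single lines. Without PanIN 6, limma called 5 of the 7 genes: Cdkn2b lower (adjusted p = 0.0147), and Cdkn2c (0.0223), Cdkn2d (0.0344), Cdkn1c (0.0397) and Cdkn3 (0.0306) higher. Without tumor 4 it called 4, without normal 11 it called 2, and without tumor 3 it called 1. With any other single line left out it called 0. Without normal 11, PanIN 6 and tumor 4 together it called 5. The same omissions changed the calls over all genes, from 200 to 2836 without PanIN 6 and 2398 without tumor 4. Calls over all genes became 784 without normal 11, 319 without tumor 3 and 4096 without the 3 lines together. They fell to 53 without PanIN 1 or without tumor 8.

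By level, the order in tumor lines was Cdkn2a, Cdkn2b, Cdkn1b, Cdkn3, Cdkn2c, Cdkn2d and Cdkn1c, and the means of normal and PanIN lines fell in the same order. In normal lines the ranges of every pair of neighbours in this order overlapped. In tumor lines Cdkn2a stood clear of Cdkn2b, and Cdkn2c of Cdkn2d, while the other neighbours overlapped. PanIN lines had gaps between Cdkn2b and Cdkn1b, between Cdkn2c and Cdkn2d, and between Cdkn2d and Cdkn1c.

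A proliferation score was taken as the mean log2(TPM + 1) of 52 genes, 26 of S phase and 26 of mitosis, with none of the 7 inhibitor genes in it. It was lowest in normal 11 (4.41) and highest in tumor 8 (6.17). PanIN 6 (5.88) had the highest score among PanIN lines and tumor 4 (5.31) the lowest among tumor lines. Of the S phase genes 21 of 26 were called higher in tumor than in normal lines, and of the mitosis genes 10 of 26. The share over all tested genes was 17.8%. Medians were 0.52 and 0.58, against 0.04 over all tested genes. No gene of either list was called by limma between PanIN and normal lines, and 0 had an unadjusted p below 0.05. Between tumor and PanIN lines 0 were called as well, although the medians were 0.58 and 0.63 and an unadjusted p below 0.05 was found for 26 and 24 of the 26 genes. The authors' deposited table called 19 and 4 of them in that comparison, against 11.7% of genes.

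After the group means were removed, Cdkn3 and Cdkn2c followed this score most closely. Over the 19 lines Pearson's r was 0.94 for Cdkn3 (Spearman's rho 0.91) and 0.93 for Cdkn2c (rho 0.87). Both r values had a permutation p of 1e-05, the smallest that 100000 permutations within groups can give (3.5e-05 adjusted over the 7 relations computed). The rho values had a permutation p of 1e-05 and 2e-05 (7e-05 adjusted, both). Within normal, PanIN and tumor lines alone, r was 0.96, 0.96 and 1.00 for Cdkn3 and 0.96, 0.85 and 0.97 for Cdkn2c. Within the identifier series it was 0.93, 0.98 and 0.88 for Cdkn3 and 0.95, 0.94 and 0.94 for Cdkn2c. Without normal 11 and tumor 8, the lines farthest from the median score, r was 0.90 and 0.87.

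Cdkn2d and Cdkn1c followed the score more loosely, with r of 0.73 (permutation p = 0.00133, adjusted 0.0031; rho 0.70, p = 0.00249, adjusted 0.00581) and 0.56 (permutation p = 0.0222, adjusted 0.0311; rho 0.57, p = 0.0181, adjusted 0.0258). Within the identifier series r was 0.87, 0.98 and 0.42 for Cdkn2d and 0.25, 0.72 and 0.72 for Cdkn1c. Without normal 11 and tumor 8, r for Cdkn2d was 0.59 (adjusted permutation p = 0.0502) and rho 0.59 (adjusted 0.048), so that 1 of the 2 measures passed the threshold. For Cdkn1c r was then 0.46 (adjusted permutation p = 0.0841) and rho 0.44 (adjusted 0.154), and neither passed. Cdkn1b had r of 0.19 and rho of 0.17 (permutation p = 0.501 and 0.504, adjusted 0.501 and 0.504), and -0.04 without those lines.

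Cdkn2b ran opposite to the score, with r of -0.56 (permutation p = 0.0182, adjusted 0.0311) and rho of -0.56 (p = 0.0184, adjusted 0.0258). It held without normal 11 and tumor 8 (r of -0.61, adjusted permutation p = 0.0202). Within the identifier series r was -0.78, -0.38 and -0.80, and within normal, PanIN and tumor lines -0.64, -0.74 and -0.06. Cdkn2a had r of -0.43 (permutation p = 0.0719, adjusted 0.0839) and rho of -0.26 (p = 0.307, adjusted 0.358), and r of -0.50 without those lines. Its r within the groups was -0.06, -0.93 and -0.30, and within the identifier series -0.58, -0.22 and -0.73. In PanIN lines, then, PanIN 6 had the lowest Cdkn2a and the highest Cdkn2c, Cdkn3 and proliferation score.

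**Figure D4:**
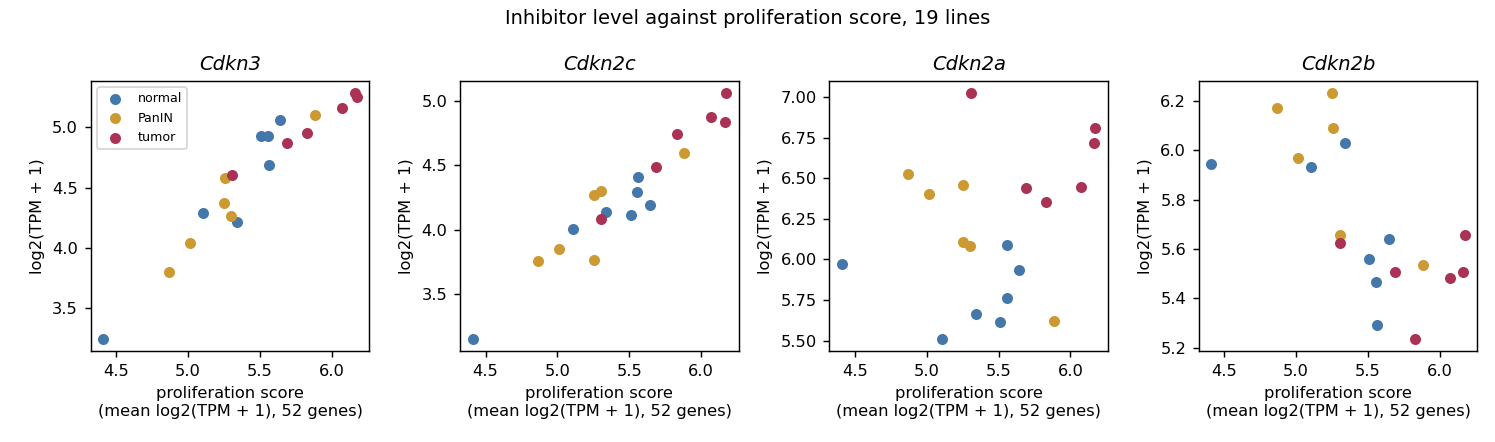
Log2(TPM + 1) of Cdkn3, Cdkn2c, Cdkn2a and Cdkn2b (vertical axes) against the proliferation score, the mean log2(TPM + 1) of 52 S phase and mitosis genes (horizontal axes), with 1 point per line coloured by group. Cdkn3 and Cdkn2c rise along the score in all 3 groups, from normal 11 at 4.41 to tumor 8 at 6.17, while tumor lines lie above normal lines in Cdkn2a at like scores.

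With the score as a covariate, a fit added after the data were seen, Cdkn2a alone of the 7 was called between tumor and normal lines. Over all 12500 tested genes the calls went from 4024 to 687, so most other genes lost theirs as well. The Cdkn2a difference was 1.02 (adjusted p = 0.00159, limma), against 0.84 without the covariate. For Cdkn2c the difference went from 0.64 to 0.12 (adjusted p = 0.536), for Cdkn2d from 0.55 to 0.19 (0.513), for Cdkn1c from 0.55 to 0.24 (0.531) and for Cdkn3 from 0.54 to -0.15 (0.491). Score and group cannot be told apart in full, since tumor lines held the 3 highest scores.

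The genes whose log2(TPM + 1) was most like each inhibitor over the 19 lines, out of 10954 named genes, are given as a description. The 19 lines share groups and identifier series. For Cdkn3 these were Cdca2 (r of 0.98), Melk (0.98) and Aurka (0.98), a kinase of mitosis that is also in the score. For Cdkn2c they were Nsmce4a (0.97), Pbk (0.96) and Prim1 (0.96), the small primase subunit, also in the score. Cdkn2d was most like Xrcc6 (0.92) and the replication-dependent histone genes Hist1h4i (0.92) and Hist1h2bm (0.92), whose near-identical paralogs can take each other's reads, so that these values are uncertain.

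The other 4 genes had less close partners. Cdkn1c was most like Slc25a5 (r of 0.89), Nxf1 (0.89) and Ccdc43 (0.88), and Cdkn1b most like Srd5a1 (0.83), Snx1 (0.79) and Sin3a (0.77). For Cdkn2b they were the small MAF factor gene Maff (0.84), Tinagl1 (0.83) and the thrombomodulin gene Thbd (0.81). For Cdkn2a they were Rundc3b (0.84), Tsta3 (0.82) and Wtip (0.81). With the group means removed, r with Cdkn2a was 0.47 for Rundc3b, 0.71 for Tsta3 and 0.69 for Wtip. Among the inhibitors themselves, r was 0.88 between Cdkn2c and Cdkn3 and -0.04 between the adjacent Cdkn2a and Cdkn2b. After the group means were removed, these values were 0.85 and 0.37.

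Cyclins, CDKs and genes linked to them, such as Cdc25a and Mnat1, were read from a list of 18 genes. Not all of them are bound by these inhibitors. Between tumor and normal lines 9 were called higher and 0 lower (17.8% and 14.4% of all tested genes). Their median log2 difference was 0.43, against 0.04 over all tested genes. Ccnd2, a D-type cyclin partner of CDK4 and CDK6, stood at 113.7 ± 30.0 TPM in normal (SD, n = 7) and 197.4 ± 33.2 in tumor lines (SD, n = 6), 1.75-fold higher (adjusted p = 0.00123, limma). Ccne2, a cyclin E gene that acts with CDK2, rose 1.85-fold (adjusted p = 0.0129), and Cdk1, the kinase of mitosis, 1.62-fold (adjusted p = 0.0165). The genes of the INK4 targets had no such rise. Cdk4 had 297.9 ± 17.9 TPM in normal (SD, n = 7) and 300.3 ± 24.6 in tumor lines (SD, n = 6). Cdk6 had 38.6 ± 6.89 and 32.7 ± 2.74 TPM. Between PanIN and normal lines 2 of the 18 were called, Ccnd2 (2.36-fold higher, adjusted p = 0.000126) and Ccnd1 (1.64-fold higher, adjusted p = 0.000404). Of all tested genes 3.10% were called higher and 3.68% lower there. Ccnd1 was 1.404-fold lower in tumor than in PanIN lines (adjusted p = 0.0341). It was the 1 gene of the 18 called in that comparison, where 1.21% of all tested genes were called lower.

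Downstream of cyclins and CDKs, 5 of 13 RB and E2F family genes were called higher and 0 lower between tumor and normal lines. The shares of all tested genes were 17.8% and 14.4%. Limma called 0 of the 13 in the other comparisons. An unadjusted p below 0.05 was found for 0 of them between PanIN and normal and for 6 between tumor and PanIN lines. The authors' deposited table called 0 and 2 of them, against 10.5% and 11.7% of genes. E2f2, an activating E2F, had 1.72 ± 0.668 TPM in normal (SD, n = 7) and 4.73 ± 1.43 in tumor lines (SD, n = 6), 2.10-fold higher (adjusted p = 0.00394, limma). E2f4, an E2F that mainly represses, rose 1.39-fold (adjusted p = 0.00720). Tfdp1, the partner of the E2F proteins, rose 1.31-fold (adjusted p = 0.0216).

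Of 12 genes of the ARF and p53 axis, 6 were called higher in PanIN than in normal lines and 7 lower in tumor than in PanIN lines. The shares of all tested genes were 3.10% and 1.21%. Medians were 0.48 and -0.59, against -0.03 and 0.06 over all tested genes. Mdm2, the ligase that p19ARF binds, had 68.3 ± 12.5 TPM in normal (SD, n = 7) and 106.8 ± 14.1 in PanIN lines (SD, n = 6), 1.57-fold higher (adjusted p = 0.00333, limma). It was 1.74-fold lower in tumor than in PanIN lines (adjusted p = 0.00352). Between tumor and normal lines 1 of the 12 was called higher, Npm1, a nucleolar partner of p19ARF (1.24-fold, adjusted p = 0.0267), and 1 lower, Cdkn1a. Of all tested genes 17.8% were called higher and 14.4% lower there. The median of the 12 was -0.03, against 0.04 over all tested genes. Over the same 3 groups Cdkn2a went from 55.0 to 74.2 to 99.7 TPM.

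Known regulators of the Ink4/Arf locus, 18 tested genes, had 5 called higher and 1 lower between tumor and normal lines (median 0.06). All tested genes had 17.8% higher, 14.4% lower and a median of 0.04. Suz12 and Ezh2, subunits of the Polycomb complex that represses Cdkn2a, rose 1.35-fold (adjusted p = 0.0118, limma) and 1.34-fold (adjusted p = 0.0188). Hmga2, a chromatin protein known to lower expression of the locus, had 4.15 ± 1.90 TPM in normal (SD, n = 7) and 10.1 ± 1.56 in tumor lines (SD, n = 6), 2.25-fold higher (adjusted p = 0.000512). Ets1, which can activate the p16INK4a promoter, fell 1.70-fold (adjusted p = 0.0164). Between PanIN and normal lines 1 of the 18 was called, Hmga2 (2.26-fold higher, adjusted p = 0.000944). Of all tested genes 3.10% were called higher and 3.68% lower there. Between tumor and PanIN lines 0 were called (0.392% of all tested genes higher and 1.21% lower), and 3 had an unadjusted p below 0.05. The authors' deposited table called 2 in that comparison, against 11.7% of genes.

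TGF-beta responsive genes were read because Cdkn2b is a known TGF-beta target and every culture held the receptor inhibitor. Of 11 tested, 6 were called lower and 0 higher between tumor and normal lines (median -0.41), and 2 lower between PanIN and normal lines. Of all tested genes 14.4% were called lower and 17.8% higher in the first comparison (median 0.04), and 3.68% lower in the second. Pmepa1, a feedback inhibitor of the pathway, had 7.26 ± 3.31 TPM in normal (SD, n = 7) and 1.03 ± 0.596 in tumor lines (SD, n = 6), 3.91-fold lower (adjusted p = 0.000680, limma). Skil, a SMAD corepressor, fell 1.69-fold (adjusted p = 0.00141) and Tgif1 1.43-fold (adjusted p = 0.00390). Cdkn2b itself, at -0.19 with an adjusted p of 0.268, was not called in that comparison.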

How the data were processed

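The authors deposited 1 table of TPM for 19 libraries, with their own comparisons beside it. Per the labels' protocols, total RNA extracted with Trizol was made into stranded libraries after removal of ribosomal RNA. Genome build mm9, Bowtie 1.1.0, RSEM 1.2.11, FastQC, DESeq and DESeq2 1.4.1 are named, per the submitters' processing notes. The annotation, and whether counting used strand, are not given in the sources used here. Per the file headers, the authors' comparisons hold a mean signal, a log2 fold change, its standard error and test statistic (a score per gene), and a p-value with its adjusted p-value. The deposited table gives no comparison for 11 expressed rows, which took 16.3% to 28.6% of a line's TPM.

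Groups came from the labels. Differences were tested on log2(TPM + 1), which understates the change of low genes, with limma 3.58.1 in R 4.3.3. The fit had 1 mean per group over all 19 lines and eBayes with trend, two-sided. A gene needed a TPM of 1 in at least 6 lines. Depth is unknown. The packages jsonlite (version 2.0.0) and data.table (version 1.17.8) read the files. Permutations for the proliferation score moved lines within groups, two-sided. The script was tested on simulated data.

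Every inhibitor gene is described in all comparisons. Named from each gene list were up to 4 genes per comparison with the smallest p, and for likeness the 3 genes with the highest r. The inhibitor genes and lists were chosen with earlier results of these data known. The 33 other settings covered pseudocounts, filters, scalings, covariates, array weights, the groups fitted and omitted lines; 2 were added after the data were seen. The number of columns of other samples is 0. Some alleles of these mice are not reported here.

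Library identifiers in the column names form 3 series. Tumor 4, PanIN 1 to 3 and normal 5 to 7 are in the first; tumor 5, 7 and 8, PanIN 4 and normal 10 and 11 are in the second; the rest are in the third.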

Additional observations from a re-analysis of the deposited data

Results flagged for a closer look

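Cdkn2c in normal 11 stood far from the other normal lines, at 7.9 TPM against 15.1 TPM in the nearest line. Of 24 sets of lines checked in this way (8 genes in 3 groups) this was the 1 that stood out, and chance marks about 5% of sets. Normal 11 also had the lowest proliferation score of the 19 lines, 4.41, and the lowest Cdkn3, 8.48 TPM. Without normal 11 the Cdkn2c difference between tumor and normal lines kept its call.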

How the results depend on the processing

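Of the 33 other settings, Cdkn2a was called between tumor and normal lines in 32, Cdkn2c in 30 and Cdkn2d in 29, while Cdkn1c was called in 19 of the 32 that could test it (a filter at TPM 5 removed it). No called difference changed sign. The number of inhibitor genes called between PanIN and normal lines was 1 with the identifier series as covariate, with array weights and without normal 11, PanIN 6 and tumor 4 together, and ranged from 0 to 1 when single lines were left out. Between tumor and normal lines it was 5 with array weights, 1 with the proliferation score as covariate, and ranged from 1 (without tumor 8) to 4, with 2 without tumor 5. Between tumor and PanIN lines it was 6 with array weights, 5 without the 3 lines together, and ranged from 0 to 5. Without normal 11 and tumor 8, 3 inhibitor genes rather than 5 followed the proliferation score by Pearson's r. Over all genes, 847, 4024 and 200 were called between PanIN and normal, tumor and normal, and tumor and PanIN lines. The first count was 535 with a filter at TPM 5, 1056 with the identifier series, 1245 with array weights and 707 without the 3 lines. It ranged from 496 (without PanIN 5) to 893 without single lines. The second was 687 with the proliferation score and 4990 with array weights, and ranged from 2657 (without tumor 8) to 4860 without single lines. The third was 93 with no filter, 130 with a filter at TPM 5, 333 after quantile normalization, 303 after median-of-ratios scaling, 65 with the identifier series, 4889 with array weights, 97 with only the groups compared, 14 with the proliferation score, 4096 without the 3 lines, and 53 to 2836 without single lines. Of the tumor to normal calls 55.1% were higher, or 37.4% after rescaling without rows that have no comparison. Of the tumor to PanIN calls 24.5% were higher, or 67.3% with array weights. The cause of these changes was not tested.

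Line numbers were shared by some lines of different groups, and the labels do not say that a number marks a common mouse or batch. Deviations of same-numbered lines had r of -0.31 to 0.25, and 3 of 6 PanIN and tumor lines were most like their own number, so the numbers were not taken to pair lines. With the replicate block the Cdkn2a difference was 0.03 between PanIN and normal (adjusted p = 0.957) and 0.47 between tumor and normal lines (adjusted p = 0.241), 0 inhibitor genes passed between tumor and normal lines, and 258, 225 and 8 genes of all those tested were called in the 3 comparisons.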
